A study of Mus musculus with 16 samples.

Results

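The committed cells of *Tet2*-KO and WT bone marrow were compared in mice that had received vehicle, in 7 lineages taken by marker genes: neutrophil, monocyte, basophil, megakaryocyte, erythroid, dendritic cell (DC) and lymphoid. A cell joined a lineage when at least 2 of 6 marker genes were detected, its marker score reached 0.35 of that of the best cells, and this score led that of every other lineage by 0.15 or more. Of 94917 cells in the series that had at least 750 detected genes and at most 10% mitochondrial UMIs, 46152 came from vehicle mice, and 30390 of these fell into a committed lineage. They comprised 14942 erythroid, 6942 neutrophil, 4648 monocyte, 1829 basophil, 814 lymphoid, 612 megakaryocyte and 603 DC cells. A further 11338 cells fell into no lineage, and 4424 were stem cells, early progenitors or cells of another kind.

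The WT mice were Tet2fl/fl and the KO mice were Vav-Cre Tet2-/-, both on C57BL/6 and 6 to 12 weeks old by the sample labels. Each group held 4 mice, given vehicle by intraperitoneal injection for 5 weeks, and served as the baseline for groups given 500 ng of IL1β per mouse and day. Vav-Cre acts throughout the blood lineages and was carried by the KO mice alone, so its presence and the loss of *Tet2* cannot be told apart in these data. Bone marrow was depleted of lineage-positive cells before capture, and the shares below are shares of the fraction that was kept.

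TET2 is a dioxygenase that oxidises 5-methylcytosine and so opens the way to DNA demethylation. Loss-of-function mutations of *TET2* are common in clonal hematopoiesis, and loss of the mouse gene is known for increased self-renewal of stem cells and a bias to myeloid output. The lineages described here lie downstream of those stem cells: neutrophils store proteases and antimicrobial proteins in granules, monocytes and DCs present antigen, basophils release histamine, megakaryocytes shed platelets and erythroid cells make hemoglobin.

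Each vehicle library pooled 2 mice of 1 genotype, told apart by hashtag antibodies, and held between 52915002 and 95326908 UMIs in kept cells. The mouse was the replicate, and 15817 committed cells carried the hashtag of a single mouse; cells with both hashtags were left out as doublets. Most erythroid cells carried no hashtag (72.3% in WT and 68.5% in KO), against 6.7% to 28% in the other lineages, so the erythroid values per mouse rest on a minority of these cells. *Xist* and Y-linked UMIs placed KO mice 1 and 2 and WT mouse 1 as female and the other vehicle mice as male. In the cells hashtagged as WT mouse 2, 10.6% had *Xist* UMIs, against at most 0.183% in the other male vehicle mice, and 3.73% of those of WT mouse 1 had Y-linked UMIs; the part of mixed hashtags in the results was not tested. Every neutrophil, monocyte, basophil and erythroid call given below held without WT mouse 2, which had too few DCs to enter that fit. No pair of libraries shared more than 0.512% of barcodes.

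Genes that were not used for the gate were checked against the lineage names. Primary granule genes summed to between 26250 and 33220 CPM (UMIs scaled to a common total per sample) in each neutrophil sample, above every other lineage. Globin and heme genes reached 10550 to 15510 CPM in erythroid cells, platelet genes 8749 to 24480 in megakaryocytes, and MHC class II genes 6047 to 9199 in DCs. Dendritic cell factors went against the DC name, at 10640 to 13230 CPM in DC samples and 20750 to 69410 CPM in lymphoid samples, where 15650 to 62290 CPM came from *Jchain*, which antibody-secreting cells also express. Lymphoid factors and receptors, a list that holds *Jchain* as well, summed to 20170 to 70280 CPM in lymphoid samples and 4074 to 6727 CPM in DC samples. Monocytes and DCs were separated least well: monocyte effector genes summed to 14530 to 20180 CPM in monocyte samples and 13250 to 14650 in DC samples. When cells were clustered without the gate, 34.3% of the monocyte cells lay in clusters named DC, and the DC gate held 11.6% of the 5099 vehicle cells in those clusters. Of the gated neutrophil cells, 74.9% lay in clusters named neutrophil. The neutrophil lineage was mostly granulocyte progenitors, between 180 and 1019 per mouse, with 6 to 213 maturing neutrophils, and among hashtagged cells the erythroid lineage held 92 to 930 early erythroid cells and 3 to 19 erythroblasts per mouse. Clusters of all vehicle cells, with or without a hashtag, held 4261 cells in the cluster named erythroblast.

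Whether *Tet2*-KO changed expression at baseline was tested with edgeR's quasi-likelihood test on UMIs summed per mouse, with calls at a Benjamini-Hochberg adjusted p under 0.05. Fold changes are KO over WT, and levels are CPM scaled by TMM. Few genes passed: 4 of 10779 in neutrophils (0.0371%), 2 of 9308 in monocytes (0.0215%), 1 of 7492 in basophils (0.0133%), 6 of 10411 in erythroid cells (0.0576%) and 2 of 4085 in DCs (0.049%). In megakaryocytes 0 of 7145 genes passed in edgeR and 0 in DESeq2, with 235 at an unadjusted p under 0.05, and in lymphoid cells 0 of 3940 passed in either tool, with 105 at an unadjusted p under 0.05. The median log2 fold change over all tested genes lay between -0.006 and 0.018 in the 7 lineages. Genes with an unadjusted p under 0.05 made up 2.66% to 5.6% of those tested.

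*Tet2* itself was no check of the genotype, because 3′ counts do not show whether the deleted part is present. Its log2 fold change lay between -0.12 in DCs and 0.16 in megakaryocytes, with SEs of 0.10 to 0.39, and its levels overlapped between genotypes in all 7 lineages. The related dioxygenase genes *Tet1* and *Tet3* were not called either: in neutrophils *Tet1* differed by -0.10 ± 0.19 (SE) and *Tet3* by -0.01 ± 0.13 on the log2 scale. Of the 15 listed genes of DNA methylation and demethylation, 8 to 15 were tested per lineage and 0 were called in any, with 0 to 1 per lineage at an unadjusted p under 0.05.

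*Commd10* was the gene called in the most lineages. It encodes a member of the COMMD family, proteins of the Commander complex that sorts membrane proteins in endosomes, and lies on chromosome 18 from 46958816 to 47234284 (GRCm38). In neutrophils it measured 9.89, 5.51, 9.01 and 5.96 CPM in the 4 WT mice and 24.6, 25.1, 26.3 and 27.5 CPM in the 4 KO mice. The genotypes did not overlap, and the KO mice spread less around their mean than the gap between genotypes. This was a 3.26-fold rise (log2 1.70 ± 0.14 SE, adjusted p = 4.14e-06). The KO mice alone carried the Cre transgene, so its part in this rise cannot be told apart from that of *Tet2* loss. Where the transgene lies in the genome was not tested.

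The rise of *Commd10* in monocytes was of like size. The WT mice measured 13.3, 8.56, 13.4 and 17.2 CPM and the KO mice 53.5, 55.1, 53.5 and 58.9 CPM. All KO values lay above all WT values, a 3.76-fold rise (log2 1.91 ± 0.18 SE, adjusted p = 1.16e-06).

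Basophils gave the highest fold for *Commd10*, 9.22 (log2 3.20 ± 0.29 SE, adjusted p = 3.11e-07). The WT mice measured 13.7, 13.8, 5.51 and 5.54 CPM, from 7, 1, 3 and 5 UMIs, and the KO mice 82.7, 53.1, 80.2 and 69.3 CPM, from 35, 7, 49 and 52 UMIs. These are small counts in WT, and the groups were still apart by more than the spread within either.

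In erythroid cells *Commd10* rose 2.12-fold (log2 1.09 ± 0.16 SE, adjusted p = 5.74e-03), from 7.81, 4.90, 8.29 and 5.85 CPM in WT to 15.7, 13.1, 14.2 and 15.6 CPM in KO. This call was lost with the library as replicate, a setting that includes the cells without a hashtag (adjusted p = 0.135), and when WT mouse 4 was left out.

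In the remaining lineages *Commd10* was not called. In DCs, where 3 mice per genotype had at least 10 cells, WT measured 13.4, 17.4 and 13.6 CPM from 2, 3 and 3 UMIs, and KO 84.1, 86.4 and 65.7 CPM from 12, 16 and 13 UMIs (log2 2.33 ± 0.53 SE, adjusted p = 0.126). In lymphoid cells the gene fell below the filter on low counts, at 0 to 2 UMIs per WT mouse and 3 to 10 per KO mouse. Megakaryocytes differed from the rest in that the genotypes overlapped, with WT at 7.41, 16.96, 8.14 and 25.2 CPM and KO at 7.56, 22.5, 15.96 and 11.9 CPM (log2 0.07 ± 0.37 SE). Whether the megakaryocyte value differs from that of the other lineages was not tested.

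**Figure D1:**
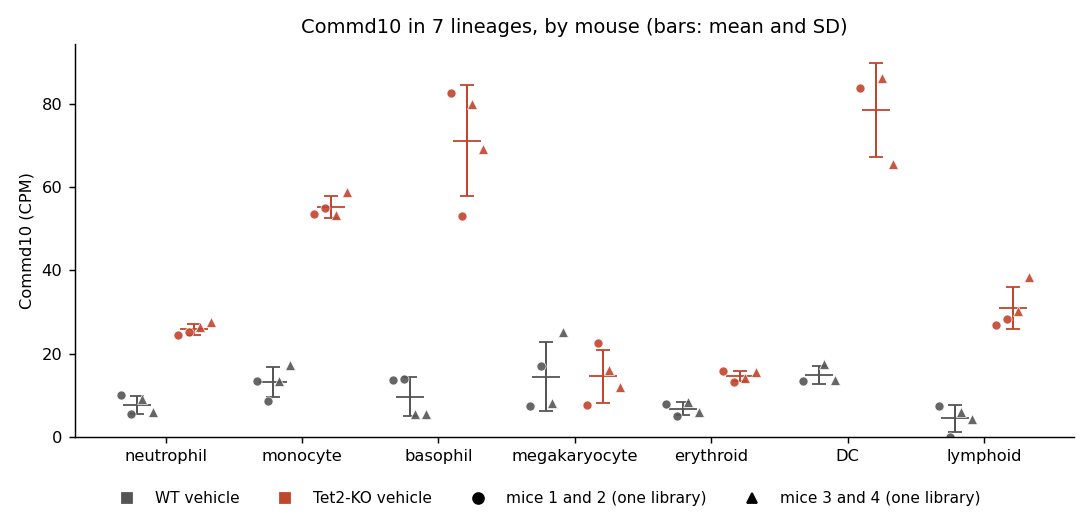
*Commd10* level (CPM scaled by TMM, linear axes) in each lineage, with 1 point per vehicle mouse, WT and *Tet2*-KO side by side, and bars at the mean with SD. KO mice lie above all WT mice in every panel but megakaryocyte, where the groups overlap; the WT points of DC and lymphoid cells rest on 0 to 3 UMIs each.

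Clusters in place of the gate change which cells are counted as well as their number. The DC clusters held 34.3% of the gated monocyte cells, and 11.6% of their 5099 cells were gated as DCs. In them *Commd10* was called higher in KO (log2 1.86, adjusted p = 2.02e-07), from 11.9 to 15.8 CPM in WT to 41.3 to 62.8 CPM in KO (per total UMIs, without TMM). Of 8883 genes 2 were called there (0.0225%). Lymphoid clusters gave the same direction (log2 2.20, adjusted p = 0.0452), and *Commd10* was the 1 gene called there of 8040 (0.0124%). The IL1β mice, other animals of the same genotypes, gave neutrophil levels of 8.02 to 9.10 CPM in WT and 22 to 27.8 CPM in KO. Their monocytes held 2.27 to 15 against 55.3 to 63.1 CPM, their basophils 7.29 to 13.5 against 58.6 to 83.7, and their erythroid cells 6.21 to 8.72 against 10.3 to 15.5, all without overlap. The genotypes overlapped in their megakaryocytes (15.4 to 25.7 CPM in WT and 19.9 to 25.0 in KO), DCs (10.9 to 43.9 and 29.3 to 50.0, from 3 and 2 mice) and lymphoid cells (0 to 17.7 and 9.67 to 51.4). Over all tested genes, the genotypes did not overlap in the IL1β mice for 5.21% in neutrophils, 2.77% in monocytes, 4.14% in basophils and 4.01% in erythroid cells.

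None of the 9 other COMMD genes was called in any lineage. Of the 10 family members, all 10 were tested in neutrophils, monocytes, basophils, megakaryocytes and erythroid cells, and the family median log2 fold change there was 0.03 to 0.16. On the chromosome, the nearest tested genes within 300000 bases were *Atg12*, which acts in autophagy, and *Ap3s1*, a subunit of the AP-3 adaptor complex. They differed by 0.02 ± 0.11 and 0.05 ± 0.07 (log2, SE) in neutrophils and by 0.03 ± 0.16 and 0.13 ± 0.14 in monocytes.

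Neutrophils carried 3 further calls, a pair of *Hoxa* genes that fell and a protease gene that rose. *Hoxa9*, a homeobox transcription factor of myeloid progenitors that is silenced as they mature, measured 25.0, 22.1, 20.8 and 23.8 CPM in WT and 13.6, 10.49, 10.03 and 8.12 CPM in KO. Every KO mouse lay below every WT mouse, and the log2 fold change was -1.08 ± 0.15 (SE, adjusted p = 3.87e-03). *Hoxa7*, its neighbour on chromosome 6, fell likewise, from 25.5, 20.2, 17.8 and 18.99 CPM to 9.80, 10.7, 8.66 and 11.3 CPM (log2 -1.04 ± 0.15 SE, adjusted p = 4.02e-03).

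The fall of both genes held when any single mouse was left out. It was not called with the library as replicate, which leaves 2 values per genotype (adjusted p = 0.141 for both), or in limma with the library as a random block (adjusted p = 0.104 for both). Other tested genes of the cluster were not called: *Hoxa5* differed by -0.49 ± 0.41 and the noncoding *Hotairm1* by -0.25 ± 0.37 (log2, SE). In neutrophils of IL1β mice the genotypes did not overlap either, with *Hoxa9* at 28.9 to 37.1 CPM in WT and 14.9 to 20.1 CPM in KO, and *Hoxa7* at 20.0 to 25.4 and 11.2 to 14.9 CPM. Outside neutrophils neither gene was called, and *Hoxa9* differed by -0.77 ± 0.24 in erythroid cells, -1.33 ± 0.47 in basophils and -0.22 ± 0.35 in monocytes. *Hoxa7* differed by 0.08 ± 0.36, -0.15 ± 0.41 and -0.38 ± 0.28 in the same lineages (log2, SE).

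*Ctsc* encodes cathepsin C, the peptidase that activates the serine proteases of neutrophil granules. It measured 27.7, 24.8, 26.5 and 29.1 CPM in WT neutrophils and 42.4, 44.0, 45.3 and 37.7 CPM in KO neutrophils, a 1.55-fold rise (log2 0.63 ± 0.09 SE, adjusted p = 5.03e-03). The call was lost in 5 of 22 alternatives, and the adjusted p reached 0.89 with the library as replicate. In IL1β mice the genotypes overlapped, at 20.2 to 24.3 CPM in WT and 21.7 to 25.5 CPM in KO; the interaction of genotype and IL1β was not called (adjusted p = 0.986).

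**Figure D2:**
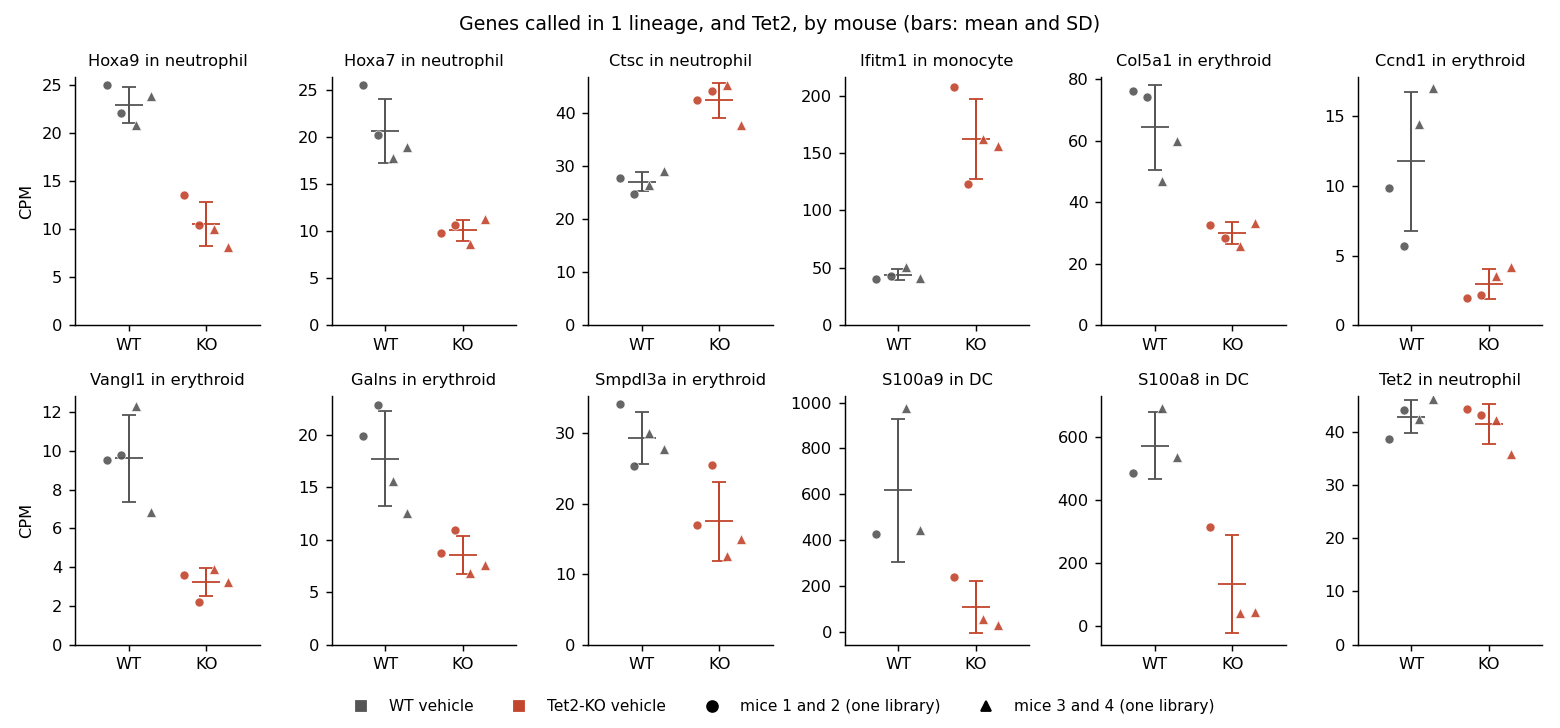
Genes called between genotypes other than *Commd10*, each in the lineage where it was called, and *Tet2* in neutrophils (CPM scaled by TMM, linear axes), with 1 point per vehicle mouse, WT and *Tet2*-KO side by side, and bars at the mean with SD. *Smpdl3a* overlaps between the genotypes by a single KO mouse, *Tet2* overlaps, and the other panels do not; DC panels hold 3 mice per genotype.

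Of 13 tested primary granule genes, *Ctsc* was the 1 called in neutrophils, against 4 of all 10779 tested genes (0.0371%). Their median was 0.15 against 0.02 over all tested genes. The list median was above 0 in the other lineages as well, among them 0.17 in monocytes, 0.25 in erythroid cells and 0.21 in lymphoid cells, with 0 called. *Prtn3*, which encodes the granule protease proteinase 3, measured 8120 ± 752.2 CPM in WT and 10330 ± 364.1 CPM in KO (SD, n = 4) without overlap, and was not called (adjusted p = 0.856). Over all tested neutrophil genes 54.4% had fold changes above 0. Of 25 tested genes of secondary and tertiary granules, 0 were called and 21 had fold changes below 0, with a median of -0.33. Their summed level ran from 90580 CPM in WT mouse 2, where 53 of 233 neutrophil cells were maturing, to 6902 CPM in KO mouse 4, where 6 of 548 were, and the part of this cell mix in the median was not tested.

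Of 22 tested monocyte effector genes in the neutrophil lineage, 16 had fold changes above 0, against 54.4% of all tested genes. Of these 22 genes 0 were called, with a median of 0.30. *Ly6c2*, a surface antigen of inflammatory monocytes and their progenitors, came nearest, at 1509 ± 159.2 CPM in WT and 2278 ± 195.1 CPM in KO (SD, n = 4, log2 0.59 ± 0.11 SE, adjusted p = 0.054). *Klf4*, a transcription factor of monocyte differentiation, measured 9.36 ± 1.67 and 19.9 ± 6.89 CPM (adjusted p = 0.392). The 6 monocyte markers of the gate, which were kept out of the test, summed to 143.3 to 236.1 CPM in WT and 275.7 to 334.7 CPM in KO neutrophils, against 3170 to 3835 CPM in monocytes. Their part in these values was not tested. Genotypes did not overlap in neutrophils for 337 of 10779 tested genes (3.13%), and 3 of 22 tested monocyte effector genes were among those higher in KO (1.64% of all tested genes).

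In monocytes the second call was *Ifitm1*, the gene of an interferon-induced membrane protein. It measured 40.5, 42.8, 51.1 and 41.3 CPM in WT and 207.6, 122.7, 161.8 and 155.9 CPM in KO. The lowest KO mouse lay far above the highest WT mouse, and the rise was 3.72-fold (log2 1.89 ± 0.21 SE, adjusted p = 2.62e-05). It was called in 21 of 21 alternatives, with log2 fold changes of 1.71 to 2.00.

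*Ifitm1* is abundant in basophils, at 844.4 ± 185.8 CPM in WT and 1630 ± 381.4 CPM in KO (SD, n = 4, adjusted p = 0.258). The 6 basophil markers summed to 8.56 to 60.7 CPM in WT monocytes and 20.7 to 58.8 CPM in KO monocytes, ranges that overlap. In the DC clusters, which hold 34.3% of the gated monocyte cells, *Ifitm1* was also called (log2 1.39, adjusted p = 6.23e-03). In the gated DCs the direction was the opposite, -0.60 ± 0.51, and it was not called. It was also not called in neutrophils (0.86 ± 0.33), erythroid cells (1.1 ± 0.28), megakaryocytes (0.69 ± 0.42) and lymphoid cells (0.92 ± 0.49; log2, SE). Monocytes of IL1β mice held 105 to 185 CPM in WT and 154 to 316 CPM in KO, ranges that overlap, and the interaction was not called (log2 -1.11, adjusted p = 1).

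The neighbours of *Ifitm1* on chromosome 7 were not called. *Ifitm2* differed by 0.16 ± 0.13, *Ifitm3* by 0.30 ± 0.24 and *Ifitm6* by -0.18 ± 0.33 (log2, SE) in monocytes. Next by p in monocytes stood *Prtn3*, at 1850 ± 164.8 CPM in WT and 2627 ± 158.2 CPM in KO (log2 0.50, adjusted p = 0.268). The lowest p among genes lower in KO belonged to *Iffo1*, *Abca9*, a lipid transporter gene, and *Atxn2l*, an RNA-binding protein gene, at adjusted p of 0.522 to 0.642. Genotypes did not overlap for 2.92% of tested genes in monocytes. The 24 tested monocyte effector genes held 0 calls, with a median of -0.10.

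Basophils had no call beside *Commd10*. Of the 25 tested basophil and mast cell effector genes 0 were called, against 1 of 7492 genes in the lineage (0.0133%), and their median was 0.07. *Hdc*, which makes histamine, measured 388.9 ± 158.1 CPM in WT and 474.4 ± 247.2 CPM in KO, and *Gata2*, a transcription factor of the lineage, 1283 ± 230.6 and 1213 ± 230.6 CPM. Genes with the smallest p were *Ifitm1* and *Prtn3* on the higher side and *H1fx*, a linker histone gene, *Slc23a2*, a vitamin C transporter gene, and *Zbtb33*, a gene for a methyl-CpG binding protein, on the lower side. *H1fx* measured 84.0, 82.6, 55.1 and 43.2 CPM in WT and 21.3, 30.3, 22.9 and 23.98 CPM in KO, without overlap (log2 -1.34 ± 0.30 SE, adjusted p = 0.258). Non-overlap occurred for 2.6% of all tested basophil genes.

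In erythroid cells 5 of 10411 genes fell (0.048%). *Col5a1*, which encodes a chain of type V collagen, had the smallest p, at 76.3, 74.3, 46.9 and 59.9 CPM in WT and 32.6, 28.4, 25.7 and 33.3 CPM in KO (log2 -1.08 ± 0.14 SE, adjusted p = 2.49e-03). The fall was 2.11-fold without overlap and was called in 22 of 22 alternatives, the library as replicate among them (adjusted p = 0.0197). The largest early erythroid cluster, of 4423 vehicle cells, had the collagen genes *Col1a1* and *Col1a2* among its leading genes. Which cells carry *Col5a1* was not tested.

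*Ccnd1*, the gene of cyclin D1, which drives entry into the cell cycle, showed the largest fold among erythroid calls, 3.89-fold lower in KO. It measured 9.87, 5.72, 14.4 and 17.1 CPM in WT and 1.96, 2.19, 3.57 and 4.20 CPM in KO (log2 -1.96 ± 0.32 SE, adjusted p = 0.019). The KO values rest on 11, 3, 33 and 35 UMIs, and no KO mouse reached the lowest WT mouse. *Ccnd1* is higher in DCs, at 294.6 to 382.1 CPM in WT. In erythroid samples the 6 plasmacytoid DC markers summed to 2.45 to 7.58 CPM in WT and 2.19 to 4.82 CPM in KO, which overlap, and the 6 lymphoid progenitor markers to 7.12 to 18.5 CPM in WT and 4.08 to 6.17 CPM in KO, which do not. Their part in the *Ccnd1* call was not tested. The other D cyclins did not pass: *Ccnd2* differed by 0.24 ± 0.13 and *Ccnd3* by -0.02 ± 0.14 (log2, SE).

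*Vangl1*, a planar cell polarity gene, fell from 9.53, 9.80, 12.3 and 6.82 CPM to 3.57, 2.19, 3.90 and 3.24 CPM (log2 -1.43 ± 0.24 SE, adjusted p = 0.019). *Galns*, which encodes a lysosomal sulfatase, fell from 19.9, 22.9, 15.6 and 12.6 CPM to 8.74, 10.9, 6.82 and 7.57 CPM (log2 -1.08 ± 0.19 SE, adjusted p = 0.019). *Smpdl3a*, the gene of a secreted phosphodiesterase, fell from 29.3 ± 3.73 to 17.5 ± 5.65 CPM (SD, n = 4, adjusted p = 0.0299), and KO mouse 2, at 25.5 CPM, overlapped the WT mice.

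Among the 8 fits that left out 1 vehicle mouse, *Ccnd1* was called in 4, *Vangl1* in 3, *Galns* in 3 and *Smpdl3a* in 2. With the library as replicate, *Ccnd1*, *Vangl1* and *Galns* were not called (adjusted p = 0.0639, 0.502 and 0.198), and in limma with the library as a random block *Ccnd1* and *Vangl1* were not (adjusted p = 0.139 and 0.196). With the vehicle mice alone in the fit, *Vangl1*, *Galns* and *Smpdl3a* were not called. In IL1β mice the genotypes did not overlap for *Col5a1* (42.9 to 50.7 CPM in WT, 11.6 to 24.9 CPM in KO), *Ccnd1* (5.75 to 11.8 and 1.82 to 5.45 CPM), *Vangl1* (4.05 to 9.81 and 1.29 to 3.79 CPM) and *Galns* (12.3 to 16.9 and 5.11 to 7.39 CPM), and did overlap for *Smpdl3a*. The IL1β mice were not part of the vehicle contrast but entered the same fit, where they share the estimate of the spread.

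Genes of erythroid identity showed no call in the hashtagged cells, which held 92 to 930 early erythroid cells and 3 to 19 erythroblasts per mouse. Erythroblasts were thus hardly covered. Over all erythroid genes 6 of 10411 were called (0.0576%). Of 21 tested globin and heme genes and 27 tested genes of erythroid factors and membrane 0 were called, with medians of -0.01 and near 0. The transcription factor *Gata1* measured 117.3 ± 3.51 CPM in WT and 112.3 ± 10.3 CPM in KO, and the globin *Hba-a1* 1508 ± 457.2 and 1404 ± 138.2 CPM (SD, n = 4). *Tfrc*, the transferrin receptor that brings in iron, was 342.4 ± 8.89 CPM in WT and 412.1 ± 60.5 CPM in KO, without overlap and not called (adjusted p = 1). Non-overlap was seen for 2.63% of erythroid genes.

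DC calls were a pair of neutrophil genes, *S100a8* and *S100a9*, subunits of calprotectin. *S100a9* measured 428.1, 978.4 and 444.1 CPM in WT and 238.2, 54.0 and 30.3 CPM in KO (log2 -2.62 ± 0.43 SE, adjusted p = 4.11e-03). *S100a8* measured 488.3, 694.7 and 539.3 CPM in WT and 315.3, 43.2 and 45.5 CPM in KO (log2 -2.19 ± 0.43 SE, adjusted p = 0.028). The 3 mice of each genotype did not overlap, as for 11% of all tested genes in this lineage.

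Both genes are among the most abundant of maturing neutrophils, and *S100a8* summed to 3052 to 44210 CPM in the neutrophil lineage. The 6 markers of maturing neutrophils summed to 27.2 to 167.9 CPM in WT DC samples and 10.8 to 119.1 CPM in KO DC samples, with *Ly6g* at 0 in all 6, and their part in the calls was not tested. The 6 basophil markers summed to 40.1 to 1436 CPM in WT and 32.4 to 75.8 CPM in KO, ranges that overlap. In the DC clusters the direction turned, with log2 fold changes of 0.03 for *S100a9* and 0.25 for *S100a8*. There *S100a9* was 32.7 and 34.4 CPM in KO mice 3 and 4, which share a library (per total UMIs, without TMM). KO mice 1 and 2 held 189.4 and 387.2 CPM, and WT mice 64.5 to 220. KO mice 3 and 4 also lay below every WT mouse in the lymphoid clusters (47.6 and 34.7 against 308 to 1240 CPM). The same held in megakaryocyte and erythroid clusters, but not for both mice in monocyte and basophil clusters. What set this pool apart was not tested. The DC calls were lost in 9 and 12 of 20 alternatives. With 1 mouse left out, *S100a9* ran from log2 -3.85 without KO mouse 1 to -2.14 without KO mouse 4 or WT mouse 3, and *S100a8* from -3.67 without KO mouse 1 to -1.75 without KO mouse 4; of these fits 3 of 6 called *S100a9* and 1 of 6 *S100a8*.

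Among genes of DC identity, *Irf8*, the transcription factor that sets DC fate, measured 2219 ± 160.2 CPM in WT and 2238 ± 303.5 CPM in KO (SD, n = 3). The 20 tested DC factors held 0 calls with a median of -0.20, and the 9 tested MHC class II genes held 0 calls with a median of 0.04. The chemokine gene *Cxcl9*, the respiratory chain gene *Cyc1* and the neutrophil gene *Retnlg* were named by the rule and not called, at adjusted p of 0.45, 0.808 and 0.126. *Cxcl9* was at 0 in 1 mouse of each genotype and reached 286.3 CPM in KO mouse 3.

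Megakaryocytes held no called gene, in samples of 31 to 51 cells per WT mouse and 59 to 78 per KO mouse. Of 28 tested platelet and megakaryocyte genes 0 were called and 22 had fold changes above 0, with a median of 0.09. Over all tested megakaryocyte genes 48.9% were above 0. The smallest p values belonged to *Cox19*, *Msmo1*, an enzyme gene of cholesterol synthesis, and *Kpna6*, a nuclear import gene, on the higher side and to the mitotic kinesin gene *Kif15*, *Jchain* and *Cntln* on the lower side, all at adjusted p = 1. *Jchain*, which encodes the chain that joins antibody molecules in plasma cells, measured 1552, 7.54, 17.9 and 348.7 CPM in WT and 0 to 17.3 CPM in KO, so its level rested on 2 WT mice. Genotypes did not overlap for 1.6% of tested genes.

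The 42 S phase and 52 G2M genes gave medians of -0.26 and -0.25 in megakaryocytes, with 41 and 49 tested and 0 called. In each list 4 were above 0, against 48.9% of all tested genes. Median UMIs per megakaryocyte ran from 5140 in KO mouse 4 to 25000 in KO mouse 2, so the samples differed in depth per cell as well. In the other lineages S phase medians ran from -0.09 in lymphoid cells to 0.08 in DCs. G2M medians ran from -0.27 in lymphoid cells and -0.19 in basophils to 0.02 in DCs.

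Lymphoid cells held no called gene. By the gate the samples mixed B, T and NK cells and lymphoid progenitors, with 13 to 137 cells per WT mouse and 53 to 158 per KO mouse, and only 3940 genes passed the filter. The cluster named B cell had *Jchain* and *Mzb1* as its leading genes, so antibody-secreting cells can be among those called B cells. Their number was not counted. The lowest p values on the higher side belonged to *Sepp1*, a selenium transport protein gene, *Bcl2l11*, the proapoptotic gene of BIM, and the heat shock gene *Hspa1a*, and on the lower side to *Epcam*, *Ube4a* and *Ppig*, all at adjusted p = 1. *Epcam*, an adhesion molecule gene, measured 80.4, 54.7, 35.9 and 101.3 CPM in WT and 15.4, 9.41, 18.2 and 21.9 CPM in KO. The B cell factor *Pax5* measured 103.0 ± 23.5 CPM in WT and 54.2 ± 10.8 CPM in KO, without overlap and not called, and 2.18% of lymphoid genes did not overlap. B cell, T and NK cell and progenitor numbers varied among these mice, with T and NK cells from 1 in WT mouse 2 to 60 in WT mouse 3.

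Gene groups were then described over all lineages by the median log2 fold change of their tested members. The lists were chosen with earlier results of these data known. Interferon response genes had medians of 0.34 in neutrophils, 0.21 in monocytes, 0.23 in basophils, 0.22 in megakaryocytes, 0.27 in erythroid cells, 0.33 in DCs and 0.25 in lymphoid cells, where the median of all genes was near 0. Of the 10 to 31 members tested per lineage, 0 were called; *Ifitm1*, called in monocytes, is not on this list but on that of basophil and mast cell effectors. An unadjusted p under 0.05 was found for 11 of 31 in neutrophils (5.6% of all tested genes), 3 of 31 in monocytes (3.52%), 2 of 15 in basophils (4.43%), 1 of 14 in megakaryocytes (3.29%), 5 of 29 in erythroid cells (3.31%), 0 of 10 in DCs (3.6%) and 1 of 13 in lymphoid cells (2.66%). The summed level in neutrophils was 454.5, 413.4, 447.7 and 405.5 CPM in WT and 495.7, 548.3, 552.8 and 471.0 CPM in KO, without overlap. The sums overlapped between genotypes in the other 6 lineages, as in monocytes (1049 to 1494 CPM in WT and 1265 to 1725 CPM in KO) and erythroid cells (478.6 to 567.6 and 538.7 to 688.1 CPM). Single members were low and variable, such as *Isg15* at 3.94 ± 1.71 CPM in WT and 7.05 ± 2.96 CPM in KO neutrophils.

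MHC class I genes had their highest median in erythroid cells, 0.35, with 16 of 17 tested genes above 0 and 0 called. Over all tested erythroid genes 51.6% were above 0. Genotypes did not overlap for 6 of 17 members in erythroid cells and 5 of 17 in neutrophils, against 2.63% and 3.13% of all tested genes. In monocytes this count was 0 of 17 and in lymphoid cells 0 of 15. The erythroid values come from the minority of cells with a hashtag, and the part of that selection in them was not tested. *B2m*, the invariant light chain of MHC class I, measured 556.5 ± 52.2 CPM in WT and 743.3 ± 84.9 CPM in KO erythroid cells, and 734.5 ± 28.7 and 937.9 ± 76.7 CPM in neutrophils (SD, n = 4), without overlap in both and called in neither. In neutrophils *Nlrc5*, the transactivator of this gene family, measured 4.08 ± 0.93 CPM in WT and 8.51 ± 1.87 CPM in KO, also without overlap and not called (adjusted p = 0.392).

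**Figure D3:**
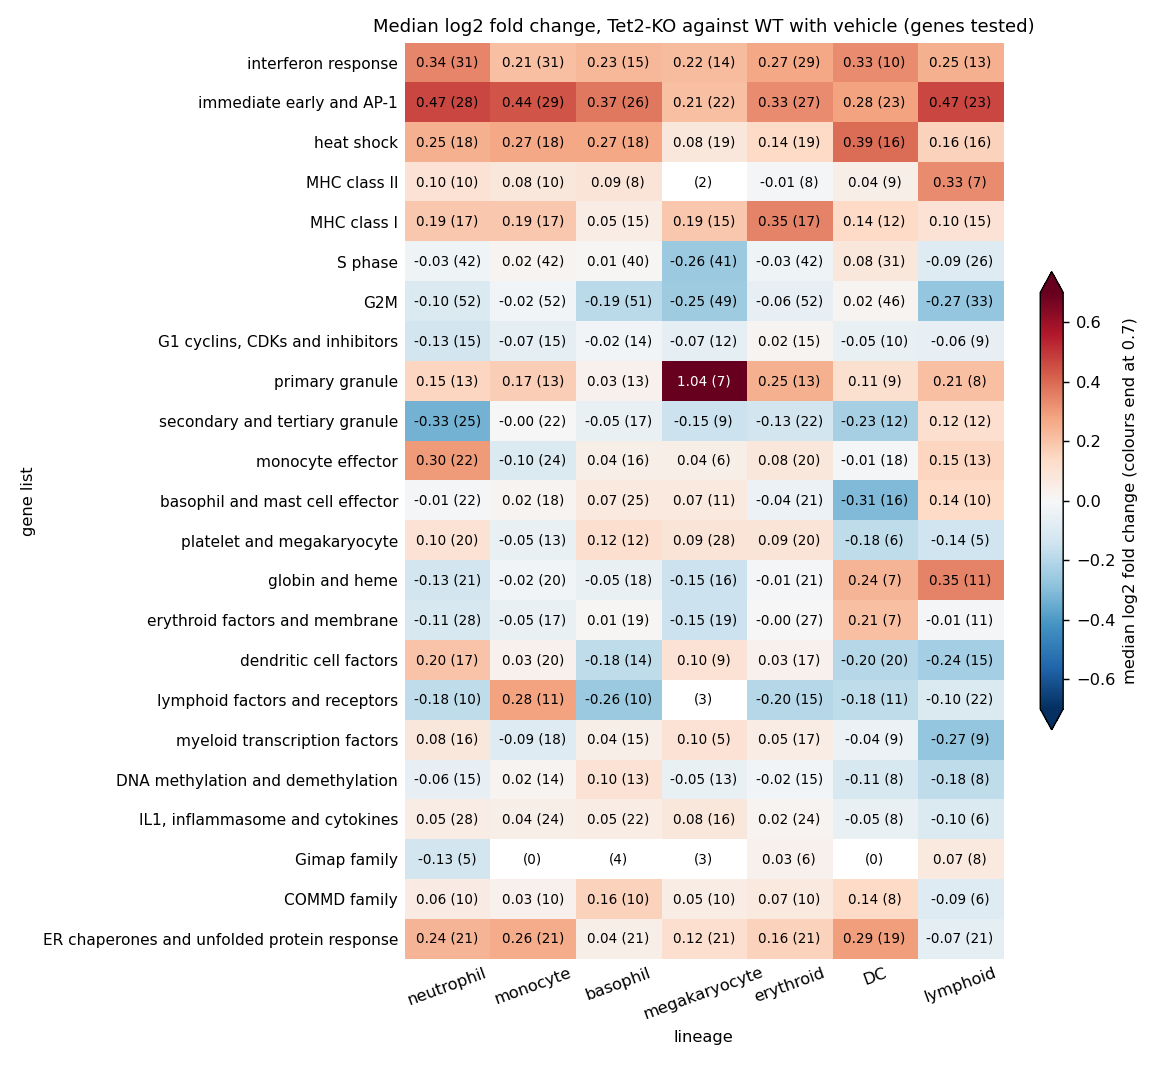
Median log2 fold change (*Tet2*-KO over WT, vehicle) of the tested genes of each gene list, with lineages as columns and the number in each cell the median. The colour scale ends at 0.7 on both sides; interferon response, immediate early, heat shock, MHC class I and primary granule lists are above 0 in all 7 lineages, and the highest value, 1.04 for primary granule genes in megakaryocytes, rests on 7 tested genes.

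Immediate early and AP-1 genes, which respond within minutes to growth factors and to handling of cells, had medians of 0.21 to 0.47 and 0 calls. Their summed level moved with the pool. In neutrophils it was 1722, 1616, 943.7 and 912.3 CPM in WT mice 1 to 4 and 2530, 2399, 1052 and 1116 CPM in KO mice 1 to 4, where mice 1 and 2 shared a library in each genotype. Mice 1 and 2 lay above mice 3 and 4 within both genotypes in neutrophils and in monocytes, where the sums were 5519, 5767, 3327 and 2626 CPM in WT and 8039, 7444, 3257 and 3106 CPM in KO. The same order held in basophils, erythroid and lymphoid cells and, with mouse 1 alone from the first pool, in DCs. It did not hold in megakaryocytes. *Fos* had a neutrophil mean of 69.3 ± 30.8 CPM in WT and 173.3 ± 116.4 CPM in KO, with SDs that reflect this split. What set the pools apart was not tested.

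**Figure D4:**
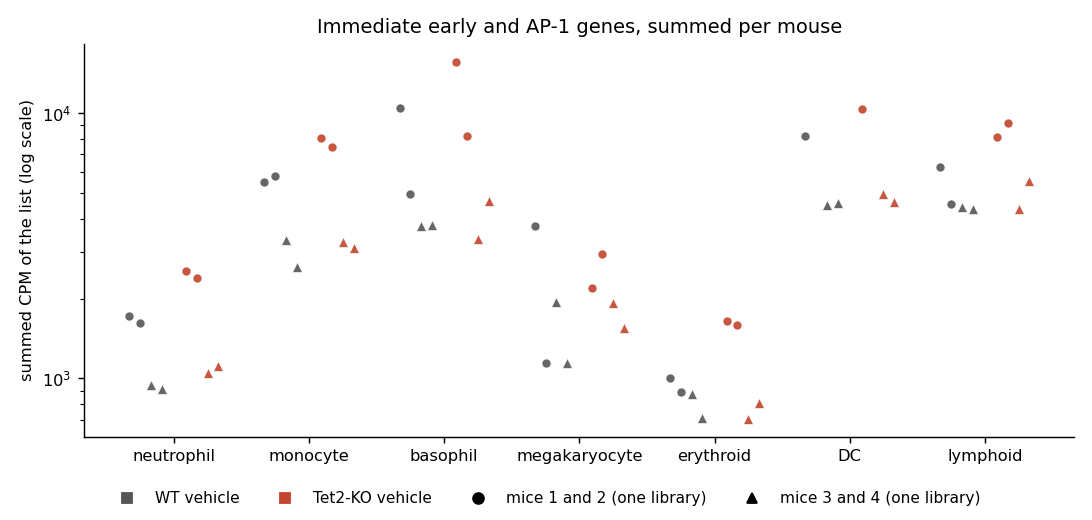
Summed level of the tested immediate early and AP-1 genes (CPM, log axis) in each lineage, with 1 point per vehicle mouse, marked by library. In neutrophils and monocytes the mice of the first pool lie above those of the second in both genotypes, a larger gap than between genotypes.

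Heat shock medians ranged from 0.08 in megakaryocytes to 0.39 in DCs, with 0 of 16 to 19 tested genes called, and ER chaperone medians from -0.07 in lymphoid cells to 0.29 in DCs, with 0 called. An unadjusted p under 0.05 was found for 0 of 19 heat shock genes in megakaryocytes up to 7 of 18 in monocytes. For ER chaperone genes it was 0 of 21 in megakaryocytes up to 6 of 21 in neutrophils and in monocytes. Over all tested genes this share was 2.66% to 5.6% per lineage. *Hspa5*, the ER chaperone BiP, measured 533.4 ± 88.0 CPM in WT and 725.0 ± 81.8 CPM in KO monocytes (SD, n = 4) without overlap and was not called (adjusted p = 1). IL1 and inflammasome genes, of interest because the treated groups received IL1β, had medians of -0.10 to 0.08, with 6 to 28 tested per lineage. Of these 0 were called, against at most 0.0576% of all tested genes. In all 7 lineages 0 were at an unadjusted p under 0.05, against 2.66% to 5.6% of all tested genes. Among myeloid transcription factors *Hoxa9* was the 1 call, and *Spi1* in monocytes measured 259.4 ± 22.1 CPM in WT and 308.6 ± 24.6 CPM in KO (adjusted p = 1). The lists of lymphoid factors and *Gimap* genes held 0 calls.

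The shares of the lineages among hashtagged cells of each mouse were compared with two-sided exact permutation tests of 4 against 4 mice, for which the smallest possible p is 0.0286. Neutrophils made up 15.03%, 33.4%, 19.7% and 15.7% of cells in WT and 26.2%, 38.4%, 19.1% and 12.2% in KO, so the spread within a genotype exceeded the difference of 3.03 points (exact p = 0.657). Monocytes made up 11.9 ± 4.50% in WT and 11.35 ± 1.61% in KO (SD, n = 4, exact p = 0.886). With cells without a hashtag counted as well, library shares differed by 4.32 points in neutrophils and 0.66 points in monocytes (KO minus WT). Among hashtagged cells the monocyte difference was -0.543 points. Basophils made up 5.12 ± 1.57% and 3.90 ± 1.59% (exact permutation p = 0.371).

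Erythroid cells made up 22.7%, 17.5%, 9.26% and 14.7% of hashtagged cells in WT and 11.8%, 7.55%, 14.9% and 17.7% in KO, overlapping ranges (exact p = 0.457). With cells without a hashtag counted as well and those with 2 hashtags left out, erythroid cells were 39.97% and 35.18% of the WT libraries and 25.15% and 33.39% of the KO libraries, and 2 libraries per genotype are too few for an exact test to reach 0.05. Megakaryocyte shares were 2.05 ± 1.61% and 2.35 ± 1.82% (exact p = 0.514), DC shares 1.62 ± 0.83% and 1.22 ± 0.50% (exact p = 0.457), and lymphoid shares 2.51 ± 1.24% and 2.83 ± 0.99% (SD, n = 4, exact p = 0.629). No lineage share passed the test, and adjusted p ran from 0.767 to 0.886 over the 7 exact tests.

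**Figure D5:**
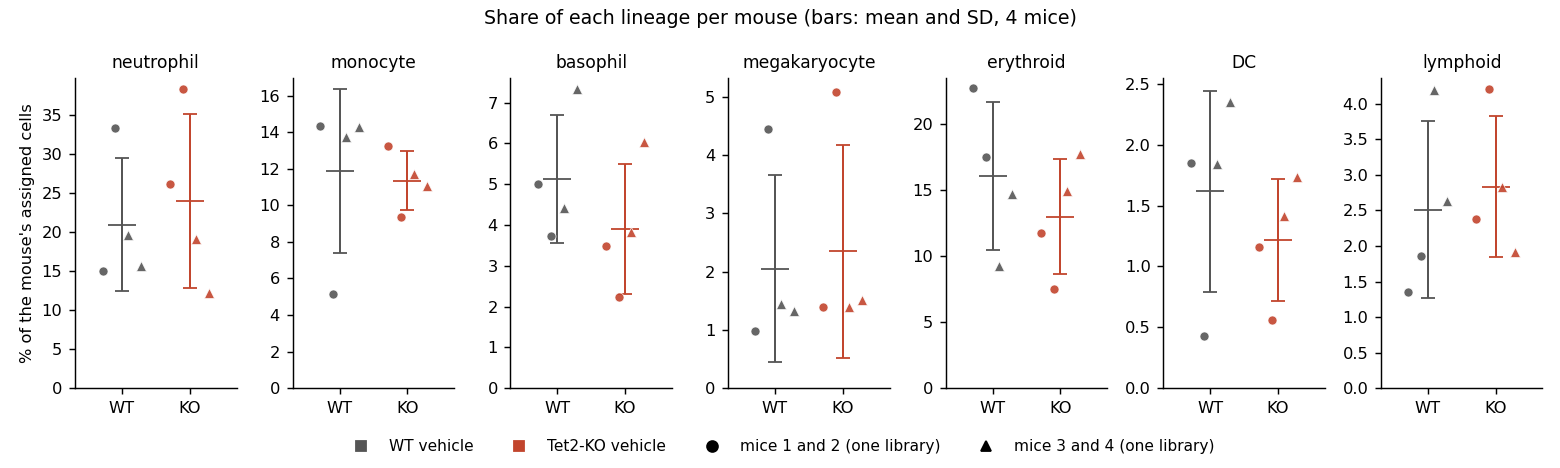
Share of each lineage among the hashtagged cells of a mouse (percent, linear axes), with 1 point per vehicle mouse, WT and *Tet2*-KO side by side, and bars at the mean with SD. The genotypes overlap in all 7 lineages.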

How the data were processed

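The authors deposited UMI counts per gene and barcode, made with Cell Ranger 3.1.0 on mm10; per the labels Seurat 3.2.3 was also used. Counts are raw, with no normalization. Cells with at least 750 genes and at most 10% mitochondrial UMIs were kept. Hashtags were classified with HTODemux (Seurat 5.3.0). Cells with 2 hashtags were left out of sums and shares as doublets. Cells without a hashtag entered library totals, library shares and the sex-split alternative, but not the main sums per mouse. Both kinds entered the counts of cells per lineage and the clusters. Gates used 16 lists of 6 markers; the cut-offs were set after seeing the cells and before any test. The 96 marker genes were kept out of tests, and 637 neutrophil, 753 monocyte and 397 erythroid cells lay within 0.05 of a cut-off. Clusters (Leiden, Python 3.11.15, leidenalg 0.10.2) served as an alternative to the gate.

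UMIs were summed per mouse and lineage for mice with at least 10 cells, which left out mouse 2 of each genotype in DCs. All 4 groups entered 1 edgeR 4.0.16 quasi-likelihood fit (R 4.3.3, TMM, filterByExpr). The SE of a log2 fold change is its size over the square root of F. WT mouse 2 had the fewest UMIs of the vehicle mice in each lineage where it entered the fit, with 76202 in basophils, except in megakaryocytes. There WT mouse 1 had the fewest, 293845. DESeq2 1.42.0 and limma 3.58.1 were alternatives.

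Named genes are, per lineage, up to 5 called genes in each direction without overlap and, with fewer than 3 calls, the 3 of smallest p in each direction; called list members; and *Tet2* and *Commd10* throughout. Other genes were named after their values were seen. Members and lists were chosen with earlier results of these data known. Mice of 1 pool share a library, so p-values do not separate library from mouse. Gene coordinates are GRCm38.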

Additional observations from a re-analysis of the deposited data

Results flagged for a closer look

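Of 96 groups of 4 mice examined, 7 held a mouse that stood far from the other 3 by Dixon's criterion, where chance alone gives about 1 in 20. WT mouse 2 had a monocyte share of 5.16%, against 13.8% to 14.4% in the other WT mice, and a megakaryocyte share of 4.44%, against 0.986% to 1.44%. KO mouse 2 had a megakaryocyte share of 5.08%, against 1.40% to 1.51%. These were the mice with the fewest hashtagged cells in their genotypes, 698 and 1259.

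For single genes, *Ifitm1* in basophils was 1060 CPM in KO mouse 2, against 1780 to 1880 in the other KO mice, and *Msmo1* in megakaryocytes was 24.4 CPM in WT mouse 3, against 35.8 to 37.8. In lymphoid cells *Sepp1* was 65.8 CPM in WT mouse 1, against 20.9 to 27.3, and *Bcl2l11* was 109 CPM in WT mouse 2, which had 13 lymphoid cells, against 14.6 to 25.3.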

How the results depend on the processing

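*Commd10* was called in all alternatives tried in neutrophils (22), monocytes (21) and basophils (21), and in 20 of 22 in erythroid cells. Counts of called genes moved by over 1.5 times as follows, and the cause was not tested. With no filter on low counts they were 7 in neutrophils, 23 in monocytes, 25 in basophils, 1 in megakaryocytes, 11 in erythroid cells, 9 in DCs and 12 in lymphoid cells. With vehicle mice alone they were 3 in basophils, 3 in erythroid cells and 0 in DCs; with DESeq2, 12 in neutrophils and 0 in DCs; with the library as replicate, 1 in neutrophils and 0 in DCs. Stricter gates gave 3 in basophils and 0 in DCs, clusters gave 14 in monocytes and 1 in lymphoid cells, DCs without the top 5% of UMIs gave 0 and conventional DCs alone gave 1. The mixed-sex WT pool split by sex-linked UMIs, an alternative chosen after seeing the data, gave 7 in neutrophils. Leaving out 1 mouse gave 2 to 7 in erythroid cells and 0 to 2 in DCs.

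Mouse numbers were not used as pairs in the main fit. Same-numbered mice correlated at -0.19 to 0.58, and in no lineage did every pair pass 0.1. Every pair was above 0 in monocytes (0.08 to 0.29) and megakaryocytes (0.03 to 0.58). This describes the mice and is no test of pairing. With the mouse number as a replicate block, 4 genes were called in basophils and 5 in DCs. With the pool number as a block, 7 were called in neutrophils and 4 in basophils, and limma with the library as random block called 1 in neutrophils.

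Lineage shares turned direction in points of KO minus WT: with clusters, neutrophil -0.924, monocyte 4.29 and lymphoid -0.498. Per library the erythroid difference was -8.308, and the monocyte (0.6606) and lymphoid (-0.01566) differences turned sign. Without 1 mouse the difference ran from -1.78 to 7.17 for neutrophils, -2.79 to 0.278 for monocytes, -0.613 to 1.1 for megakaryocytes and -0.138 to 0.883 for lymphoid cells; basophil (-1.94 to -0.48), erythroid (-5.32 to -0.841) and DC (-0.796 to -0.156) differences stayed below 0. With 1 mouse left out the exact test cannot go below p = 0.0571, and per library no test was run, so neither could pass. Without WT mouse 2 the monocyte (-2.79) and DC (-0.796) shares reached that lowest p, with every KO mouse below every remaining WT mouse. With clusters no share passed.

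*Tet2*, which was near 0, turned sign in all 7 lineages (log2 fold change KO over WT). Without 1 mouse it ran from -0.09 to 0.02 in neutrophils, -0.06 to 0.12 in monocytes, -0.08 to 0.27 in basophils, -0.0024 to 0.44 in megakaryocytes, -0.14 to 0.01 in erythroid cells, -0.38 to 0.34 in DCs and -0.29 to 0.16 in lymphoid cells. With clusters it was 0.11 in neutrophils, -0.04 in monocytes, -0.01 in basophils and 0.03 in DCs, with stricter gates -0.07 in monocytes, and with the mixed-sex pool split 0.04 in erythroid and 0.01 in lymphoid cells. In lymphoid cells it was also 0.0013 with DESeq2, 0.02 with no filter and 0.18 with the library as replicate. With clusters *S100a9* and *S100a8* in DCs were 0.03 and 0.25. In megakaryocytes *Commd10* was -0.11 without the top 5% of UMIs and ran from -0.32 to 0.5 without 1 mouse. The shallowest lymphoid sample, WT mouse 2, held 37917 UMIs, and without it 0 of 4354 genes were called.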

Other observations

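The clusters named monocyte held 7081 vehicle cells, of which 42.5% were gated as monocytes, and the larger of them had *Mpo*, *Prtn3* and *Elane* among its leading genes. In these clusters 14 of 10459 genes were called, 11 higher and 3 lower in KO; the genes named here were chosen after their values were seen, and their CPM are per total UMIs, without TMM. Beside *Commd10* and *Ifitm1*, *Ffar2*, a receptor for short-chain fatty acids, was at 5.35 to 6.59 CPM in WT and 10.6 to 19.2 CPM in KO (adjusted p = 3.69e-03), and *Cd63*, a tetraspanin of late endosomes, at 41.5 to 75.9 and 79.9 to 127 CPM (adjusted p = 4.22e-03). *Ly9*, a receptor of the SLAM family, was lower in KO, at 18.0 to 22.7 CPM against 29.4 to 30.6 CPM in WT (adjusted p = 0.0437). In neutrophil clusters *Ly6c2* passed as well, at 990 to 1390 CPM in WT and 1670 to 1950 CPM in KO (adjusted p = 0.0351), a gene that can share reads with its close paralog *Ly6c1*. None of these 4 genes was called in the gated cells of the same lineage.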
